A study of Rattus norvegicus with 8 samples.

Results

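The array values of 10 enzymes of the ubiquitin and SUMO pathways were examined in the medial prefrontal cortex of 6-month-old rats. They are Ube3a, Ube2o, Ube2v1, Ube2c, Usp22, Usp32, Usp28, Fbxo21, Trim11 and Senp7. Their probes are 10 of the 582 on the authors' lists of changed probes, from an array on which 15207 probes carry a value. The treated group, JFLX, had received fluoxetine, a serotonin reuptake inhibitor, at a dose of 10 mg/kg between postnatal days 28 and 48. Controls had been given the vehicle, 5% sucrose, over those days. Each group holds 4 arrays of total RNA from this region, taken whole and hybridised with the dye Cy3 to a custom Agilent rat array. The labels give no strain, sex or genotype and do not tell whether the samples of a group are separate animals, so any p-value covers only the spread among these arrays. For control replicates 2 to 4 a free-text field names fluoxetine, whereas titles and source names say control, which was followed here.

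The members were chosen from the authors' lists of probes higher or lower in JFLX. The same contrast therefore decided both the choice of the members and the values given below, which are a description and carry no independent test. A probe entered the higher list with a mean log2 value in JFLX of 0.4 or more and the lower list with one of -0.4 or less, if its p was at most 0.05 and its spot was flagged as detected on enough arrays of the JFLX (higher list) or control (lower list) group. Ube3a, with a mean JFLX value of 0.41 in the authors' deposited table, and Trim11, with 0.42, lay just inside the fold limit. Probes just outside it carry no gene name here and were not analysed for these enzymes.

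Ubiquitin is a small protein that is joined to other proteins by a chain of enzymes. An E1 enzyme activates it, an E2 enzyme carries it, and an E3 ligase picks the target and directs the transfer. Deubiquitinating enzymes remove it again. Chains of one kind send a protein to the proteasome, whereas others alter its location or partners. SUMO is a related modifier with its own ligases and proteases. In neurons the system limits the amount of many synaptic and nuclear proteins, and loss of the maternal copy of UBE3A in the human brain causes Angelman syndrome.

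Each enzyme was on the authors' lists through a single probe, an oligonucleotide of 60 bases. Whether unlisted probes of the array also read these genes is not known here. The probes of the 5 enzymes whose differences passed the threshold of the array-wide fit, and that of Ube3a, are shown because each value below rests on that stretch alone. They are written 5′ to 3′ in lower case with no base marked.
Ube2o: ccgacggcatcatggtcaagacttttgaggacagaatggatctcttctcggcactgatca
Fbxo21: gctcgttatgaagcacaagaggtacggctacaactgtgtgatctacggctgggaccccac
Usp32: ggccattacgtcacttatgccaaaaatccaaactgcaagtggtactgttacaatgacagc
Ube3a: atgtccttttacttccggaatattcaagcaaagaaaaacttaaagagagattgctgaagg
Ube2c: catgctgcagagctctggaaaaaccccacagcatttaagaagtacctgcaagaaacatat
Usp28: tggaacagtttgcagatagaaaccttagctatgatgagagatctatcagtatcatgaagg
In the deposited table the Ube2o probe lies at chr10:106663939-106664985 on the minus strand and the Fbxo21 probe at chr12:39591481-39593051 on the minus strand. The Usp32 probe lies at chr10:73274085-73274144 on the minus strand and the Ube3a probe at chr1:110892162-110892221 on the plus strand. The Ube2c probe lies at chr3:155708262-155708593 and the Usp28 probe at chr8:52318462-52318631, both on the plus strand. The build behind these positions is not stated in the sources used here, and the strand was inferred from the order of the start and end coordinates. For 6 of the 10 enzymes the position spans more than the 60 bases of the probe, from 170 bases for Usp28 to 5758 bases for Trim11, so that the probe sequence is split in the genome. GC content ran from 35.0% for Ube3a to 55.0% for Fbxo21 and Trim11, beside a median of 45.0% in both of the authors' lists.

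Of the 10 enzymes, 8 had higher values in JFLX and 2, Ube2c and Usp28, had lower ones; the authors' lists hold 2.12% of all probes as higher and 1.71% as lower. Values are the deposited log2 values, set at each probe so that the control arrays have a median of 0, so that levels cannot be compared between genes. In bulk tissue, fewer cells of a type and less RNA per cell cannot be told apart. In the fit of all 15207 probes with limma, 3 of the 8 higher enzymes passed an adjusted p of 0.05, where 5.89% of all probes passed in that direction, and both lower ones did, where 0.355% did. Since the choice of members used this contrast, nothing is read from these counts. The groups did not overlap in 7 of the 8 higher enzymes and in both lower ones, against 10.0% of all probes in the higher and 2.95% in the lower direction. The median difference of the 8 was 0.51 on the log2 scale, beside 0.57 over the 322 probes of the authors' higher list and 0.04 over all probes.

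**Figure D1:**
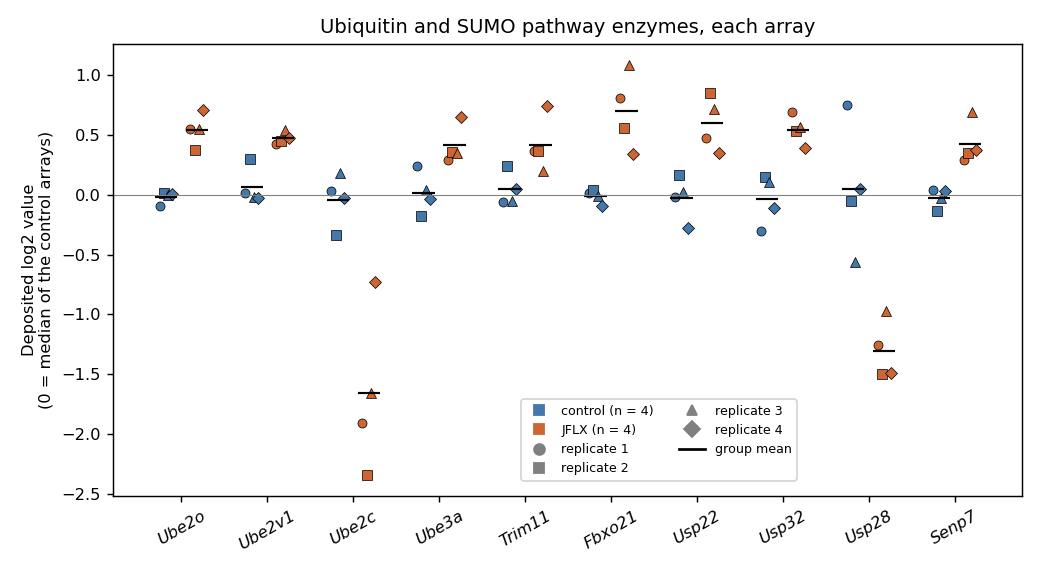
Deposited log2 value (vertical axis, 0 is the median of the control arrays) of each of the 10 enzymes on the 4 control and 4 JFLX arrays, with symbols for replicates and lines for group means. JFLX points lie above the control points in 7 enzymes, overlap them in Trim11, and lie below them in Ube2c and Usp28.

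Among the E2 enzymes, Ube2o had the smallest p of the 10. It is a large enzyme that works as E2 and E3 at once and is known from mouse red cell precursors, where it marks ribosomal proteins for removal. Its log2 values were -0.09, 0.01, 0.00 and 0.00 on control arrays 1 to 4 and 0.55, 0.37, 0.55 and 0.71 on JFLX arrays 1 to 4. All JFLX arrays stood above all control arrays, and the controls lay close together. The fitted difference was 0.56 ± 0.10 (SE, n = 4 per group), a 1.48-fold higher mean in JFLX, with a limma adjusted p of 0.0129. The spread within JFLX was 2.86 times that within the controls, as a ratio of SDs.

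Ube2v1 encodes an E2 variant that lacks the catalytic cysteine and works with the E2 Ube2n to build chains that do not lead to the proteasome. Its control values were 0.02, 0.30, -0.02 and -0.02, and its JFLX values were 0.43, 0.45, 0.54 and 0.48. The JFLX arrays formed the tightest treated group of the 10 enzymes, and control replicate 2 stood apart from the other controls. The difference was 0.41 ± 0.11 (SE), or 1.32-fold, and did not pass (limma adjusted p = 0.0759). Without control replicate 2 it was 0.48 and passed, with a limma adjusted p of 0.0288.

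Ube2c is the E2 enzyme that serves the anaphase-promoting complex in dividing cells. Its spot was flagged as detected on 4 of 4 control arrays and on 0 of 4 JFLX arrays. Before normalization between arrays, its background-subtracted intensity was 13.5, 11.8, 13.1 and 12.8 on the control arrays and 3.55, 2.53, 4.47 and 4.53 on the JFLX arrays. Each JFLX array was below each control array on this scale, which holds the same readings and is no separate test. Its deposited log2 values ran from -0.34 to 0.18 in controls and were -1.91, -2.35, -1.66 and -0.73 in JFLX, a fitted difference of -1.62 ± 0.32 (SE, limma adjusted p = 0.0225).

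No fold is given for Ube2c, nor for Usp28, because neither was detected on a JFLX array and the faintest detected listed probes were brighter there. Taking the listed probes that every array of a group detected, the lowest intensity was 5.11 to 6.97 on control arrays and 9.06 to 19.1 on JFLX arrays. The lists were made partly on detection, so this floor is not the detection limit of an array. The mean control signal of both enzymes was below this floor of the JFLX arrays once the normalization was taken into account, at 0.784 of it for Ube2c and 0.454 for Usp28. Their fitted differences and p-values rest on undetected JFLX readings, so the size is not taken as a measure of change. Of the 260 probes in the lower list, 117 were likewise detected on 0 JFLX arrays. None of the 10 marker genes of proliferating cells examined beside Ube2c, among them Mki67, Top2a and Cdk1, was on either list, and the values of those genes were not analysed here.

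**Figure D2:**
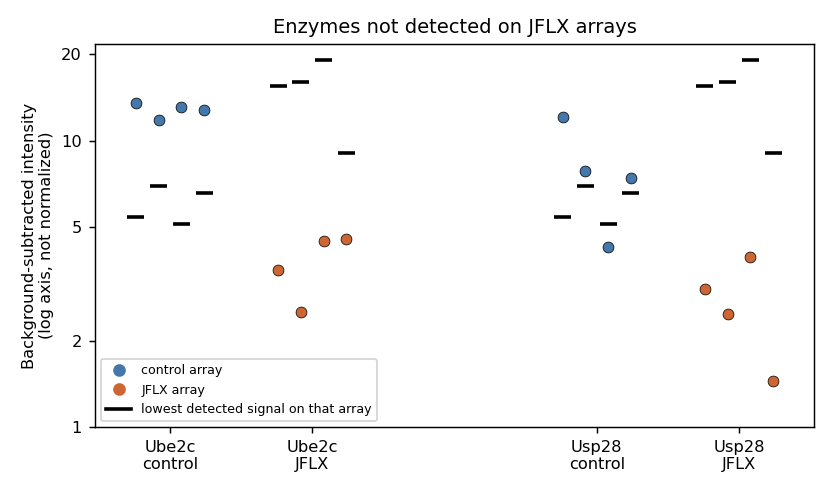
Background-subtracted intensity (log axis, before normalization between arrays) of Ube2c and Usp28 on each array, with a black bar for the lowest intensity of a listed probe detected on all 4 arrays of that group. The bars run from 5.11 to 6.97 on control arrays and from 9.06 to 19.1 on JFLX arrays, and all JFLX points lie below their bars.

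Of the E3 ligases, Ube3a belongs to the HECT kind, which takes ubiquitin onto itself before passing it on. In neurons its paternal copy is silenced by an antisense transcript, and the array does not separate the parental copies. Ube3a had log2 values of 0.24, -0.18, 0.04 and -0.04 in controls and 0.29, 0.36, 0.35 and 0.65 in JFLX. The groups did not overlap, but the lowest JFLX array stood only 0.05 above the highest control array, control replicate 1. The difference was 0.40 ± 0.13 (SE), or 1.32-fold, and did not pass (limma adjusted p = 0.168).

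Trim11, a RING ligase of the tripartite motif family that targets the transcription factor Pax6 in mouse cortex, had the smallest difference of the 10 enzymes. Control values were -0.06, 0.24, -0.05 and 0.05, and JFLX values were 0.36, 0.36, 0.20 and 0.74. The groups overlapped, since JFLX replicate 3 lay below control replicate 2. The difference was 0.37 ± 0.14 (SE), or 1.29-fold (limma adjusted p = 0.248).

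Fbxo21 is an F-box protein, the part of a cullin ligase that binds the target. It had the largest difference among the 8 higher enzymes. Its values were 0.01, 0.04, -0.01 and -0.10 in controls and 0.81, 0.56, 1.09 and 0.34 in JFLX. The controls lay close together whereas the JFLX arrays were spread widely, with an SD 5.35 times as large. The groups did not overlap, and the difference was 0.71 ± 0.16 (SE), or 1.64-fold, with a limma adjusted p of 0.0423.

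Of the 3 deubiquitinating enzymes, 2 had higher values and 1 lower. Usp22, which removes ubiquitin from histones as part of the SAGA complex, had values of -0.02, 0.17, 0.02 and -0.28 in controls and 0.47, 0.85, 0.71 and 0.35 in JFLX. The groups did not overlap, and the difference of 0.62 ± 0.15 (SE), or 1.54-fold, just missed the threshold (limma adjusted p = 0.0530). Usp32, a membrane-bound enzyme that acts on the endosomal GTPase Rab7 in human cells, had values of -0.30, 0.15, 0.11 and -0.11 in controls and 0.69, 0.53, 0.57 and 0.39 in JFLX. There was no overlap, and the difference was 0.58 ± 0.13 (SE), or 1.5-fold, with a limma adjusted p of 0.0410.

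Usp28, which stabilises the transcription factor Myc in human cells, was flagged as detected on 3 control arrays and on 0 JFLX arrays. Its intensity before normalization was 12.1, 7.86, 4.27 and 7.40 on the control arrays and 3.03, 2.48, 3.92 and 1.45 on the JFLX arrays. There was no overlap, although the faintest control spot was close to the brightest JFLX spot. Its deposited log2 values were 0.75, -0.05, -0.56 and 0.05 in controls and -1.26, -1.50, -0.97 and -1.49 in JFLX, a fitted difference of -1.35 ± 0.27 (SE, limma adjusted p = 0.0229). As for Ube2c, this rests on undetected JFLX readings and gives no size of change.

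Senp7, a protease that trims chains of SUMO, is the single SUMO enzyme among the 10. Its values were 0.04, -0.14, -0.03 and 0.03 in controls and 0.29, 0.35, 0.69 and 0.37 in JFLX. Its groups were separate, and JFLX replicate 3 was the highest. The difference was 0.45 ± 0.12 (SE), or 1.37-fold, and did not pass (limma adjusted p = 0.0725).

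No JFLX array was the highest or the lowest throughout the 8 higher enzymes. JFLX replicates 3 and 4 were each the highest of their group in 3 enzymes, and replicates 1 and 4 each the lowest in 3. The median of the 8 enzymes was 0.45, 0.41, 0.56 and 0.43 on JFLX arrays 1 to 4, beside 0.52, 0.60, 0.60 and 0.62 over the 322 probes of the higher list. Control replicate 2 was the highest control array in 6 of the 8, with a median of 0.10.

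The deposited values had been normalized between arrays, and the intensities before that step were examined for the 8 higher enzymes. Before it the JFLX and control arrays overlapped in all 8, and after it in Trim11 alone. One JFLX array was dim, with a median of 32.5 over the listed probes, against 57.3 to 63.5 on the other JFLX arrays and 36.7 to 51.0 on the controls. On that array Fbxo21 stood at 31.3, against 37.6 to 50.6 on the control arrays and 62.2 to 98.6 on the other JFLX arrays. Ube3a stood at 3441, against 3456 to 4575 on the control arrays and 4741 to 5246 on the other JFLX arrays. The other 3 JFLX arrays all exceeded the highest control array in 6 of the 8 enzymes, and did not in Ube2v1 and Trim11. Without normalization the mean log2 difference of every listed probe was lower by 0.18, which left 0.21 for Ube3a, 0.22 for Ube2v1 and 0.19 for Trim11. Intensity columns were matched by name, to groups only.

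**Figure D3:**
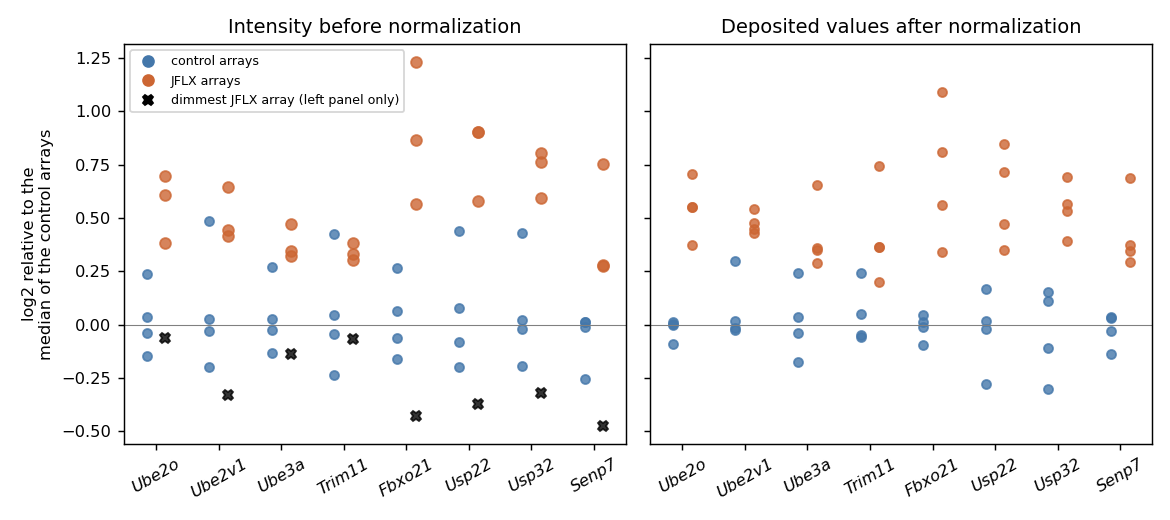
Log2 intensity before normalization (left) and deposited log2 values (right) of the 8 higher enzymes on each array, both relative to the median of the control arrays. The dimmest JFLX array, marked with a cross on the left, lies within or below the control points in all 8 enzymes, whereas on the right the groups overlap only in Trim11.

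Several of the calls in limma were lost when a single array was left out, which also leaves the fit fewer arrays. The difference of Fbxo21 without control replicate 3 was 0.71, as with all arrays, at a limma adjusted p of 0.111. It was 0.58 without JFLX replicate 3 and 0.83 without JFLX replicate 4. Why calls were lost was not tested. Ube2o passed whichever array was left out, with an adjusted p of up to 0.0456, but did not in 5 of the 17 other settings tried (0.0689 to 0.131), among them quantile normalization and centring on the 75th percentile. Usp32 passed only without control replicate 2 or JFLX replicate 4, and reached 0.122 without the others. Fbxo21 passed only without JFLX replicate 4 and lay at 0.0671 to 0.122 without any other array. Ube2c did not pass without control replicate 1, 3 or 4 or JFLX replicate 1 or 3 (0.0647 to 0.0704). Usp28 did not pass without control replicate 2 or 4 or JFLX replicate 1, 2 or 4 (0.0520 to 0.0688). Usp22 passed without JFLX replicate 4 (adjusted p = 0.0397). Ube3a, Trim11 and Senp7 did not pass whichever array was left out. Of the 17 other settings, Senp7 passed only with array weights (limma adjusted p = 0.0485), and Ube3a and Trim11 passed in none. All 8 arrays were on 1 slide with the groups in separate position blocks, per the read-me sheet, so that position and treatment cannot be told apart.

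Beyond the 10 enzymes, 19 other genes of the ubiquitin, SUMO and proteasome families were on the authors' lists, found by symbol patterns for 10 families. Of these, 12 were on the higher list and 7 on the lower, and 5 and 1 passed the array-wide threshold. Over all probes 5.89% passed in the higher and 0.355% in the lower direction, and of the listed probes 105 of 322 and 49 of 260 did. These genes too are named only because they were listed, so their counts say nothing of the families as a whole. The RING and related ligases contributed 8 genes (5 higher, 3 lower), cullin ligase parts 3, deubiquitinating enzymes 2 and the proteasome 2. No other HECT ligase, no E1 enzyme and no other SUMO enzyme was listed.

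Among the higher genes, Trim23, a ligase that also holds a GTPase domain, had values from -0.12 to 0.04 in controls and from 0.47 to 0.66 in JFLX, a difference of 0.59 ± 0.09 (SE, limma adjusted p = 0.00623). Cop1, a ligase for the transcription factor Jun, stood at 0.58 ± 0.10 (adjusted p = 0.0132). Both passed whichever array was left out, but Trim23 did not in 4 and Cop1 in 5 of the 17 other settings. Nploc4, which helps the unfoldase Vcp handle ubiquitinated proteins, stood at 0.94 ± 0.21, with 1.17, 0.72, 1.44 and 0.50 on JFLX arrays 1 to 4. Spop, an adaptor that brings targets to cullin ligases, stood at 0.60 ± 0.13, and the deubiquitinating enzyme Usp7, known for acting on Mdm2 and p53, at 0.42 ± 0.10. Their adjusted p was 0.0370, 0.0381 and 0.0394, and each lost the call without JFLX replicate 1 (0.106, 0.0791 and 0.109), as without most other single arrays. Usp7 is given because it completes the 5 that passed.

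Ube2b, an E2 of DNA damage tolerance singled out after its values were seen, had the largest higher difference of all 29 genes but did not pass. Its JFLX arrays were far apart, at 2.24, 0.54, 0.52 and 1.19 against -0.18 to 0.44 in controls, and the difference was 1.06 ± 0.38 (SE, limma adjusted p = 0.217).

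Among the lower genes, Cul2, the scaffold of a cullin ligase, passed with a fitted difference of -0.54 ± 0.12 (SE, limma adjusted p = 0.0417) but was detected on 0 JFLX arrays, as were Trim13, Trim63 and Uhrf1. Cul2 kept the call only without control replicate 4, and its adjusted p reached 0.120 without JFLX replicate 2. Cops6, a subunit of the COP9 signalosome that regulates cullin ligases, and Psmd7, a subunit of the proteasome lid, were detected on all arrays. Cops6 stood at -0.53 ± 0.14 and Psmd7 at -0.52 ± 0.15, and neither passed (adjusted p = 0.0686 and 0.116). In both the groups did not overlap. Trim13, a ligase of the endoplasmic reticulum, did not pass (adjusted p = 0.0922).

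**Figure D4:**
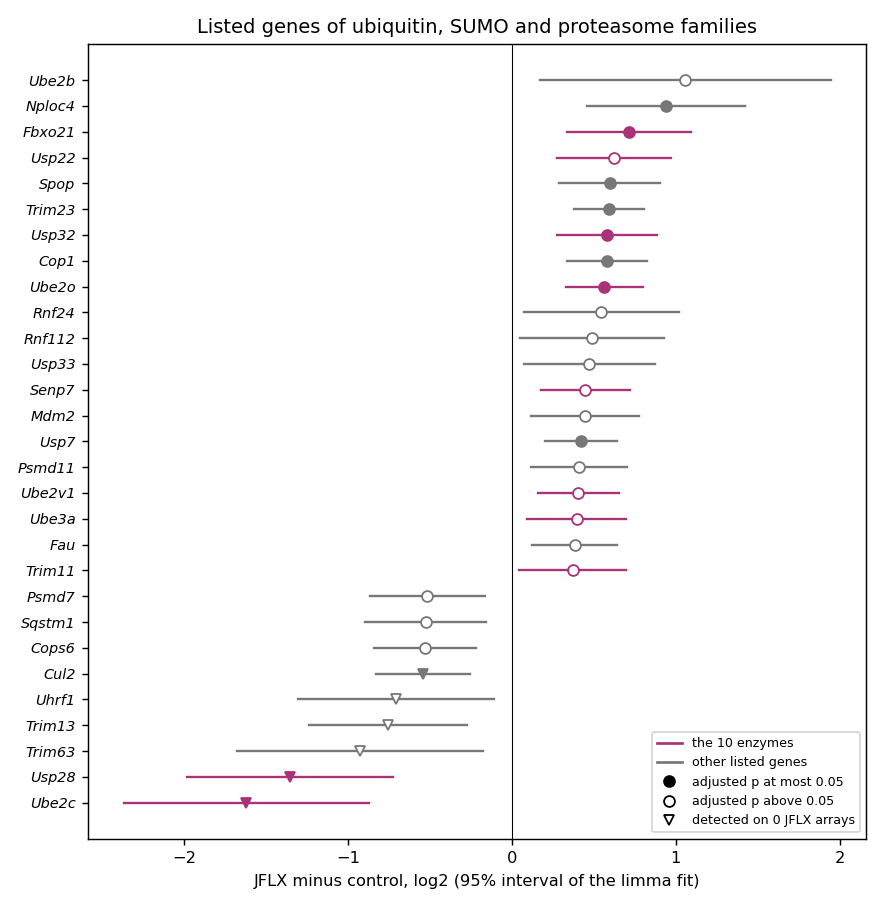
Difference between JFLX and control (horizontal axis, log2, with the 95% interval of the limma fit) for the 10 enzymes and the 19 other listed genes. Filled symbols mark an adjusted p of at most 0.05, and triangles mark genes detected on 0 JFLX arrays, which are the 6 lowest. Those 6 are Ube2c, Usp28, Trim63, Trim13, Uhrf1 and Cul2.

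Some features that played no part in the fold and p were shared. All 10 enzymes carry a name marked as predicted in the array's annotation, against 29.5% of the other listed probes and 6 of the 19 other genes of the families. Of the 10, 4 (Trim11, Usp22, Usp32 and Ube2o) lie on chromosome 10, as do 7 of the 19 other genes of the families and 11.5% of the other listed probes. The probes of Trim11 and Usp22 are 2.03 Mb apart, and those of Usp32 and Ube2o lie 27.99 and 61.37 Mb from Trim11. Split positions occurred in 60.0% of the 10, in 63.2% of the 19 other genes and in 32.6% of the other listed probes with a position.

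The named gene with the most similar values over the 8 arrays was found for 9 of the enzymes by the root mean square difference of log2 values. It was Ahi1 for Ube2v1 at 0.06 and for Trim11 at 0.09, Hmga1 for Ube3a at 0.06, and Tom1l2 for Usp22 at 0.09. It was Csnk2a1 for Usp32 at 0.09, Phyhip for Ube2o at 0.09, Egfem1 for Senp7 at 0.10 and Diras1 for Fbxo21 at 0.14. For Ube2c, which was not detected in JFLX, it was Rpl28 at 0.51. Only genes on the authors' lists could be found this way, and all of them share the same 8 arrays.

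Markers of the cell types of the cortex were named only where the authors listed them. Camk2a and Neurod2 of 6 markers of excitatory neurons stood at 0.56 ± 0.19 and -0.46 ± 0.15, Kcnc1 of 7 interneuron markers at 0.50 ± 0.14, and Pecam1 of 5 endothelial markers at 0.68 ± 0.25 (SE, log2), none past the threshold. Glul, 1 of 7 astrocyte markers, stood at -0.51 ± 0.11 and passed (limma adjusted p = 0.0362). Markers of oligodendrocytes, their precursors and microglia had 0 listed members. The part of these cell types in the values of the enzymes was not tested.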

How the data were processed

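The authors deposited a table of log2 values for 8 arrays and 2 lists of changed probes. Per the labels, 500 ng of total RNA per sample was labelled with Cy3. How arrays were normalized, which scanner software was used and which test gave the p-values is not stated in the sources used here. Per the file headers, the lists also give background-subtracted intensity per array, assigned here by column name and so to groups only, a p-value, and counts of arrays flagged as detected. Of each list, 16 per-array columns (folds, flags) were left aside.

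Genes were named through their gene ID in RefSeq (GRCr8) for 551 of the 582 listed probes and by the file otherwise; other probes are unnamed here. Differences were fitted on all 15207 probes with limma 3.58.1 in R 4.3.3 (lmFit, eBayes), with Benjamini-Hochberg adjustment and a threshold of 0.05. The fit was tried on simulated data with 200 changed probes per draw and independent normal noise, equally wide in both groups. It recovered 16.4% of 1.5-fold changes and 46.0% of 2-fold changes, with 30 false calls over all draws. A probe that does not pass may therefore still differ. In the data 950 probes passed and the JFLX arrays were more spread than the controls, so recovery there may be unlike these shares. Tables and plots used Python 3.11.15 with pandas 2.3.3 and matplotlib 3.10.9. All members were named, up to 4 other pathway genes per direction by p, and the nearest gene per member, which for Usp28 is not reported here. The members and lists were chosen with earlier results of these data known. Normalization, variance model, weights, replicate block, test, probe averaging and left-out arrays were varied. For arrays their number limits the precision. For undetected probes the control mean of log2 signal was compared with a floor, after the normalization shift of -0.181. The floor was the JFLX mean of the larger of 2 signals on each array. These were the probe's own and the lowest of the listed probes detected on all 4 JFLX arrays.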

Additional observations from a re-analysis of the deposited data

Results flagged for a closer look

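Within the groups of 4 arrays, 4 values stood apart from the other arrays of their group by Dixon's test. With 40 groups examined, about 1 in 20, or 2, would be flagged by chance. Control replicate 1 was the lowest control array for Ube2o, with a log2 value of -0.0902 and a gap of 0.863 of the range. For Ube2v1, control replicate 2 was the highest control array, with a value of 0.30 and a gap of 0.880. It was also the highest for Usp7, with a value of 0.0948 and a gap of 0.865. JFLX replicate 2 was the highest JFLX array for Spop, with a value of 0.84 and a gap of 0.842.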

How the results depend on the processing

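No enzyme changed direction in any of the 17 other settings of the fit, but in most of them none could. Trend and robust, the replicate block, the t-test, probe averaging and leaving out unlisted probes keep the difference of each enzyme as it is. Leaving out an array cannot reverse an enzyme whose groups do not overlap. The 5 enzymes past the threshold stayed past it in 34 of 85 fitted values and lost it in 51. The other 5 stayed short of it in 79 of 85 and passed in 6. Both counts include probe averaging, which leaves an enzyme with 1 listed probe nearly as it was. Main counts were 950 probes of the array, 3 higher and 2 lower enzymes, and 6 other pathway genes. Quantile normalization gave 0, 0, 0 and 0 in limma, with 1298 probes at an unadjusted p of at most 0.05. It was applied to the deposited values, whose SD was 0.347 to 0.516 on control arrays and 0.644 to 0.743 on JFLX arrays. Each probe being set by its control median, the step evens out that difference in spread too. Quantile normalization of the intensities was not run, and why the calls were lost here was not tested. Leaving out unlisted probes at the authors' fold and p, chosen after seeing the data, gave 6, 0, 0 and 0, with 1248 unadjusted; it removes small p-values and so raises the others. Trend and robust left 0 higher, 0 lower and 0 other. The trend there runs over the mean deposited value of a probe. With controls set to a median of 0, that mean follows the difference and not the level. Centring on the median, which shifts differences by -0.05, left 1 higher enzyme and 3 other genes. Centring on the 75th percentile, which shifts them by -0.19, left 0 higher enzymes. It moved the split of all calls from 896 higher and 54 lower to 682 and 221. That percentile was 0.0966 to 0.162 on control arrays and 0.271 to 0.436 on JFLX arrays. On values set by the control median it follows spread as well as level. Array weights gave 6 higher enzymes, and the equal-variance t-test 0 lower. Without each array the counts ran from 780 to 907 probes, 1 to 4 higher and 0 to 1 lower enzymes, and 2 to 6 other genes. A replicate block left 0 higher enzymes, 1 lower and 0 other genes. Same-numbered arrays deviated together with correlations of -0.04, 0.40, 0.12 and -0.28, and 1 of 4 control arrays correlated best with its own number, so the numbers are not taken as pairs. A filter on dim probes was not run, since detection is given for listed probes only. The cause of each move was not tested.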

Other observations

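The other listed genes of the families, named after their values were seen, did not pass the limma threshold. In the higher list the p53 ligase Mdm2 stood at 0.45 ± 0.14, the proteasome subunit Psmd11 at 0.41 ± 0.13 and the ribosomal fusion protein Fau at 0.38 ± 0.11 (SE, log2). The deubiquitinating enzyme Usp33 stood at 0.47 ± 0.17, and the ligases Rnf24 and Rnf112 at 0.55 ± 0.20 and 0.49 ± 0.19. Their adjusted p ran from 0.110 for Fau to 0.256 for Rnf112. In the lower list the autophagy receptor Sqstm1 stood at -0.53 ± 0.16 (adjusted p = 0.130).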
